A study of Rattus norvegicus with 9 samples.

Results

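The serotonin system of rat pulmonary artery smooth muscle cells (PASMCs) was followed through 8 genes: Tph1, which makes serotonin, Slc6a4, its transporter, Maoa, which breaks it down, and the receptor genes Htr2a, Htr2b, Htr7, Htr1b and Htr1d. They were chosen by name, from the gene name or annotated accession of each non-control probe, out of 35042 genes on a 1-colour Agilent rat array. The 8 genes have 15 of the 41012 non-control probes, and 6 of them had a probe bright enough to be tested, among 22093 genes tested in all. Htr1b and Htr1d did not. RNA came from PASMCs of male Sprague Dawley (SD) rats in their 4th generation of culture, held in normoxia, hypoxia, or hypoxia together with the plant flavonol quercetin, with 3 samples per group. Hypoxia meant 1% oxygen with 5% carbon dioxide in a sealed chamber, while normoxic cells stood in an ordinary incubator, at 37 °C. All cells went 24 h without serum and then spent 24 h in medium with 10% serum, with quercetin or, without it, the vehicle DMSO at 0.1%. The labels do not state the concentration of quercetin. There was no group with quercetin in normoxia, so the effect of quercetin was measured under hypoxia alone. These are cultured, passaged cells and not artery tissue. The labels do not say that the 3 samples of a group came from separate cultures or animals, so the p-values measure sample spread that may be technical only.

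Serotonin is made from tryptophan in steps run by a tryptophan hydroxylase and then the decarboxylase Ddc, and Tph1 is the hydroxylase of tissues outside the nervous system. The transporter carries serotonin into the cell, and monoamine oxidase A in the mitochondria degrades it. In the pulmonary artery serotonin is known as a constrictor and as a growth factor for smooth muscle, acting through surface receptors and through uptake by the transporter. The 2A and 2B receptors signal through Gq and phospholipase C, the 1B and 1D receptors through Gi, and the 7 receptor through Gs, which raises cyclic AMP.

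The probes decide which stretch of each transcript was read. The Tph1 value rests on the probe at chr1:97186071-97186087 of rn4, the build of the array files, which gives coordinates for only part of the 60-base probe. The next Tph1 probe lies at chr1:97195169-97195228 and was well above background on 1 of 9 arrays. It is shown because it reads another stretch of the same gene. For Maoa a pair of probes overlap and both cross a gap in the genome, at chrX:17683676-17686967 for the brighter probe and chrX:17683656-17686947 for the dimmer. They are shown because they share 40 bases, in capitals, so that they are not separate measurements of Maoa. The Slc6a4 probe, at chr10:67146727-67146786, is shown because every tested transporter value comes from it. No annotation on rn4 was used, so exons and untranslated regions are not assigned.
Tph1, dim probe: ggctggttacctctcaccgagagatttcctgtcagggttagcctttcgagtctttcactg
Maoa, brighter probe: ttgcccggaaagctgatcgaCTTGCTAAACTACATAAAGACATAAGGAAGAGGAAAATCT
Maoa, dimmer probe: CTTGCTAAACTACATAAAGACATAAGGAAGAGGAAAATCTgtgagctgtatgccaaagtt
Slc6a4, probe tested: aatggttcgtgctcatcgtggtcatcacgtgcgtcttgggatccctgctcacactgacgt

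All levels below are a probe's signal as a percentage of the 75th percentile signal of its own array, which was 585 to 598 intensity units for normoxia, 409 to 432 for hypoxia alone and 423 to 471 for quercetin. "Well above background" is the scanner software's own call. That call was made for 65.1% to 74.3% of probes on the normoxia arrays, 53.0% to 66.6% on the hypoxia arrays and 53.9% to 68.7% on the quercetin arrays. Hypoxia replicate 3 and quercetin replicate 1 had the lowest shares and the highest negative control signals, 7.18 and 7.55 intensity units against 1.40 to 3.46 on the other 7 arrays. Normoxia replicates 1 and 2 were on slide 1, normoxia replicate 3 and all hypoxia arrays on slide 2, and all quercetin arrays on slide 3. Quercetin and slide 3 therefore cannot be told apart, and hypoxia could be compared with normoxia within a slide only through normoxia replicate 3. Genes were tested with limma across all 9 arrays, with Benjamini-Hochberg adjustment over the 22093 genes, and called changed at an adjusted p under 0.05.

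Changes were common across the whole array. Between hypoxia and normoxia 64.2% of all tested genes were called changed, 35.3% higher and 28.9% lower, with a median log2 change of 0.103. With quercetin against hypoxia alone the share was 58.4% (26.9% higher, 31.5% lower, median -0.0753), and with quercetin against normoxia 44.3% (23% higher, 21.3% lower, median 0.0403). Of the 6 tested serotonin genes, 3 were called in the first comparison, 3 in the second and 2 in the third, shares near these backgrounds for so few genes. The groups did not overlap for 3, 4 and 3 of the 6 genes, where 71.7%, 71.1% and 53.6% of all genes did not. Changes of at least 2-fold were called for Tph1 and Htr2a in hypoxia (24.1% of all genes), for Tph1 and Htr2b with quercetin against hypoxia (20.6%) and for Htr2b with quercetin against normoxia (12.9%). How many serotonin genes moved is thus no result about them, and what follows is which of them moved, which way and how far. The same 3 hypoxia arrays enter the first and second comparisons, so that a high or low value on them pulls these apart in opposite directions.

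Tph1, the rate-limiting enzyme of serotonin synthesis outside the brain, was higher in hypoxia and lower again with quercetin. Its signal was 20.5%, 24.4% and 38.6% in the 3 normoxia samples, a mean of 27.8% ± 9.53 (SD, n = 3). In hypoxia it was 85.6%, 82.1% and 90.3%, a mean of 86.0% ± 4.12 (SD, n = 3). With quercetin it was 30.6%, 26.2% and 31.5%, a mean of 29.4% ± 2.84 (SD, n = 3). The 3 hypoxia samples stood above all 6 others, while the quercetin samples lay within the range of the normoxia samples. The probe was well above background on all 9 arrays. The dim Tph1 probe had group means of 1.585%, 1.354% and 1.565%, and its 1 call well above background was on normoxia replicate 3. It did not show the rise and was too dim to give an order of the groups, so the Tph1 result rests on 1 probe.

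Tph1 rose 3.20-fold in hypoxia, by 1.68 ± 0.211 on the log2 scale (SE, limma, adjusted p = 2.1e-04). It fell by 1.55 ± 0.211 on the log2 scale with quercetin, 2.93-fold (adjusted p = 3.9e-04). Against normoxia the quercetin samples differed by 0.13 on the log2 scale, with a 95% interval from -0.35 to 0.61 (limma, adjusted p = 0.65). A difference within these bounds is thus not excluded. Within slide 2, where normoxia replicate 3 had the highest Tph1 of its group, the rise in hypoxia was 1.15 on the log2 scale (adjusted p = 0.0013). Without normoxia replicate 3 the quercetin samples were 0.39 above normoxia on the log2 scale (adjusted p = 0.037), and within the second scan day, with that array alone as the normoxic reference, they were at -0.396 (adjusted p = 0.10). The rise in hypoxia and the fall with quercetin kept their calls under every alternative run.

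**Figure D1:**
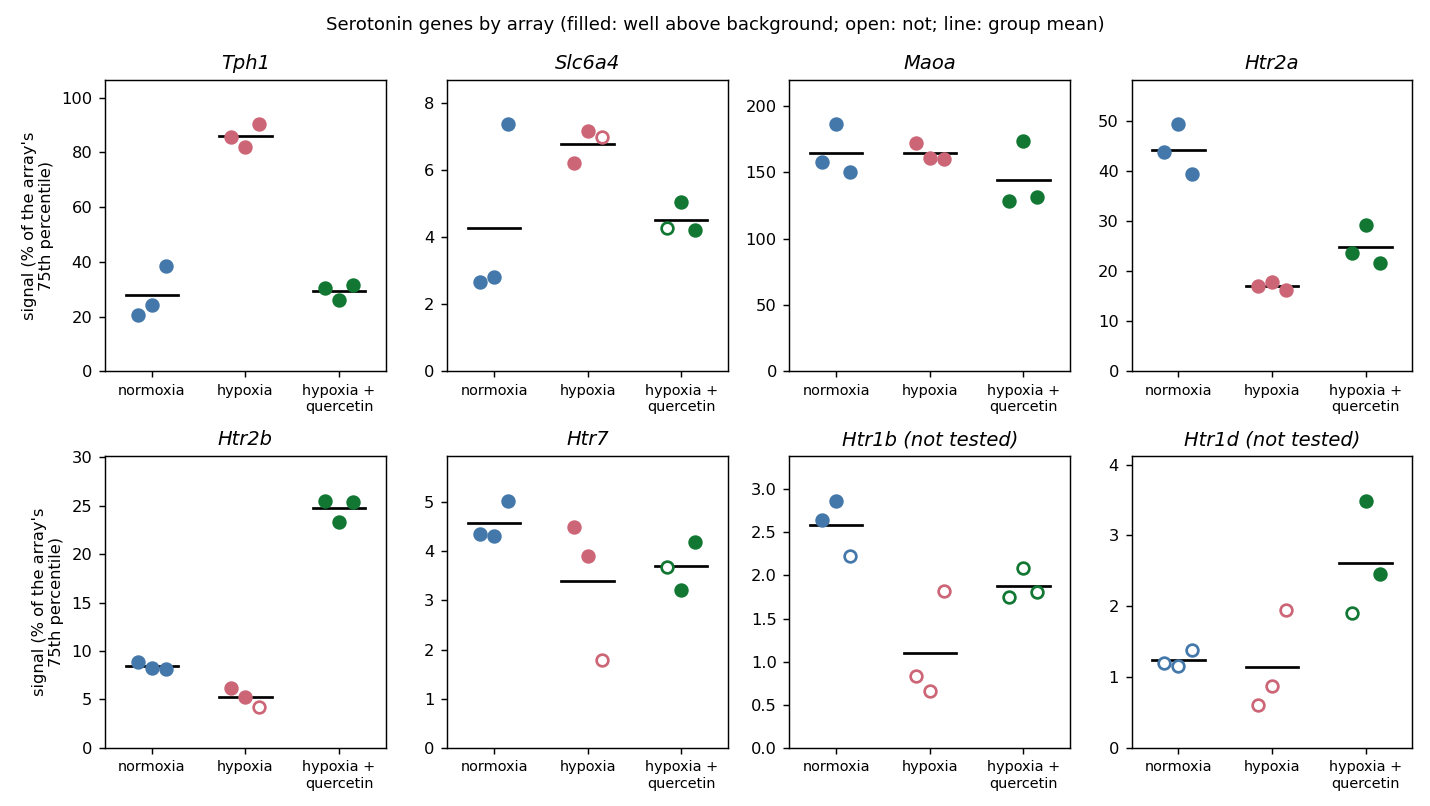
Signal of each of the 8 serotonin genes on each of the 9 arrays, as a percentage of the array's 75th percentile, with 1 panel per gene and its own vertical scale. Points are samples, filled where the probe was well above background, and lines are group means. Tph1 was highest in the 3 hypoxia samples (82.1% to 90.3%), and Htr2b was highest in the 3 quercetin samples (23.3% to 25.5%).

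Slc6a4, the serotonin transporter, was a dim gene whose pattern turned on normoxia replicate 3. Its signal was 2.66%, 2.82% and 7.37% in normoxia, with the third value, on slide 2, about level with hypoxia. In hypoxia it was 6.22%, 7.18% and 6.98%, and with quercetin 4.28%, 5.06% and 4.23%. The probe was well above background on all normoxia arrays and on 2 of 3 arrays in each of the other groups. It entered the test through the normoxia group.

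The difference between hypoxia and normoxia was 0.83 ± 0.345 on the log2 scale (SE, limma, adjusted p = 0.063). Without normoxia replicate 3 it was 1.31 (adjusted p = 9.8e-05), while within slide 2 it was -0.12 (adjusted p = 0.54). The normoxic level of Slc6a4 thus differed more between slides than the groups differed within slide 2, and which level stands for normoxia was not tested. With quercetin against hypoxia the difference was -0.59 ± 0.345 (SE, adjusted p = 0.17), although the 3 quercetin samples all lay below the 3 hypoxia samples. That difference passed in the fit of those 6 arrays alone (adjusted p = 0.0037), where the wide spread of the normoxia group does not enter, and turned to 0.243 under another background correction (normexp, adjusted p = 0.69). That correction adds an offset of 50 intensity units, more than this probe read on any array (15.9 to 43.1), which shrinks changes of dim probes. Against normoxia the quercetin samples were at 0.24 (adjusted p = 0.60), at 0.72 without normoxia replicate 3 (adjusted p = 0.0027) and at -0.71 within the second scan day (adjusted p = 0.014). A second Slc6a4 probe, at chr10:67140063-67140122, was well above background on 2, 2 and 0 arrays of the 3 groups and was not tested.

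Maoa, monoamine oxidase A, was well above background on every array and passed in no comparison. Its signal was 158%, 186% and 150% in normoxia. In hypoxia it was 172%, 161% and 160%. With quercetin it was 129%, 173% and 132%. The 3 groups overlapped, and the widest spread was within the quercetin group, where replicate 2 was the highest.

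The log2 difference of Maoa between hypoxia and normoxia was 0.003 ± 0.137 (SE, adjusted p = 0.99), with a 95% interval from -0.31 to 0.32. With quercetin against hypoxia it was -0.20 (95% interval -0.51 to 0.11, adjusted p = 0.24), and against normoxia -0.20 (95% interval -0.51 to 0.12, adjusted p = 0.28). Without quercetin replicate 2 these were -0.34 (adjusted p = 0.033) and -0.34 (adjusted p = 0.044). The overlapping dimmer probe gave 0.11, -0.41 and -0.31 in the 3 comparisons (adjusted p = 0.58, 0.052 and 0.15 over 26655 probes). Scaled to the array's spike-in controls, which lowered the median change of all genes in hypoxia to -0.401, Maoa was at -0.501 in hypoxia (adjusted p = 0.0064) and -0.60 with quercetin against normoxia (adjusted p = 0.0035).

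Htr2a, the 2A receptor, fell in hypoxia and was in between with quercetin. Its signal was 43.8%, 49.3% and 39.3% in normoxia, a mean of 44.1% ± 5.01 (SD, n = 3). In hypoxia it was 17.0%, 17.9% and 16.2%, a mean of 17.0% ± 0.826 (SD, n = 3). With quercetin it was 23.7%, 29.1% and 21.5%, a mean of 24.8% ± 3.91 (SD, n = 3). The 3 groups did not overlap, in the order normoxia, quercetin, hypoxia. This probe, at chr15:55532169-55532228, was spotted 10 times on each array and was well above background on all of them.

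The fall of Htr2a in hypoxia was 2.58-fold, -1.37 ± 0.133 on the log2 scale (SE, limma, adjusted p = 5.2e-05), and -1.21 within slide 2 (adjusted p = 0.0019). With quercetin it was 1.45-fold higher than in hypoxia alone (0.53 ± 0.133, SE, adjusted p = 0.0089) and remained 1.79-fold below normoxia (-0.84 ± 0.133, SE, adjusted p = 0.0014). The rise with quercetin had an adjusted p of 0.056 without hypoxia replicate 3 and quercetin replicate 1, and with normexp correction the adjusted p was 0.081 for the rise and 0.25 for the deficit against normoxia.

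The other bright probe of Htr2a gave the same order of group means. The probe at chr15:55533559-55533618 read 43.5%, 39.8% and 35.6% in normoxia, 17.0%, 15.9% and 14.7% in hypoxia and 20.1%, 27.2% and 20.1% with quercetin. Its changes were -1.32, 0.49 and -0.83 (adjusted p = 8.5e-05, 0.016 and 0.0020), in the direction of the brightest probe each time. The probe at chr15:55462936-55462995, which the files describe as partial gene sequence, read 4.90%, 7.48% and 4.37% in normoxia, 1.45%, 1.90% and 1.53% in hypoxia and 1.39%, 2.09% and 0.521% with quercetin. It was well above background on all normoxia arrays, on no hypoxia array and on 1 quercetin array. It passed the filter only through normoxia, where it was high, so its lower signal elsewhere supports nothing, and it gives no order of hypoxia and quercetin. The last Htr2a probe overlaps this one by 26 bases, was well above background on 2 normoxia arrays alone and was not tested.

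Htr2b, the 2B receptor, had its highest signal with quercetin. Its signal was 8.87%, 8.28% and 8.15% in normoxia, a mean of 8.43% ± 0.38 (SD, n = 3). In hypoxia it was 6.12%, 5.22% and 4.23%, a mean of 5.19% ± 0.946 (SD, n = 3). With quercetin it was 25.5%, 23.3% and 25.4%, a mean of 24.8% ± 1.25 (SD, n = 3). The 3 quercetin samples stood well above all 6 others, and the hypoxia samples lay below the normoxia samples without overlap. Its 1 probe, at chr9:84840183-84840242, was well above background on all arrays but hypoxia replicate 3, the array with the highest background in its group.

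Htr2b rose 4.82-fold with quercetin against hypoxia (log2 change 2.27 ± 0.133, SE, limma, adjusted p = 7.6e-06), a call kept under every alternative run. Against normoxia it was 2.94-fold higher (1.55 ± 0.133, SE, adjusted p = 6.6e-05). It fell 1.64-fold in hypoxia (-0.72 ± 0.133, SE, adjusted p = 0.0018), and within slide 2 by 0.668 on the log2 scale (adjusted p = 0.029). With normexp correction the rise with quercetin was 1.14 (adjusted p = 0.018), the excess over normoxia 0.906 (adjusted p = 0.070) and the change in hypoxia -0.232 (adjusted p = 0.66). Every quercetin array was on slide 3, so that a slide cannot be told apart from quercetin in the rise of Htr2b.

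**Figure D2:**
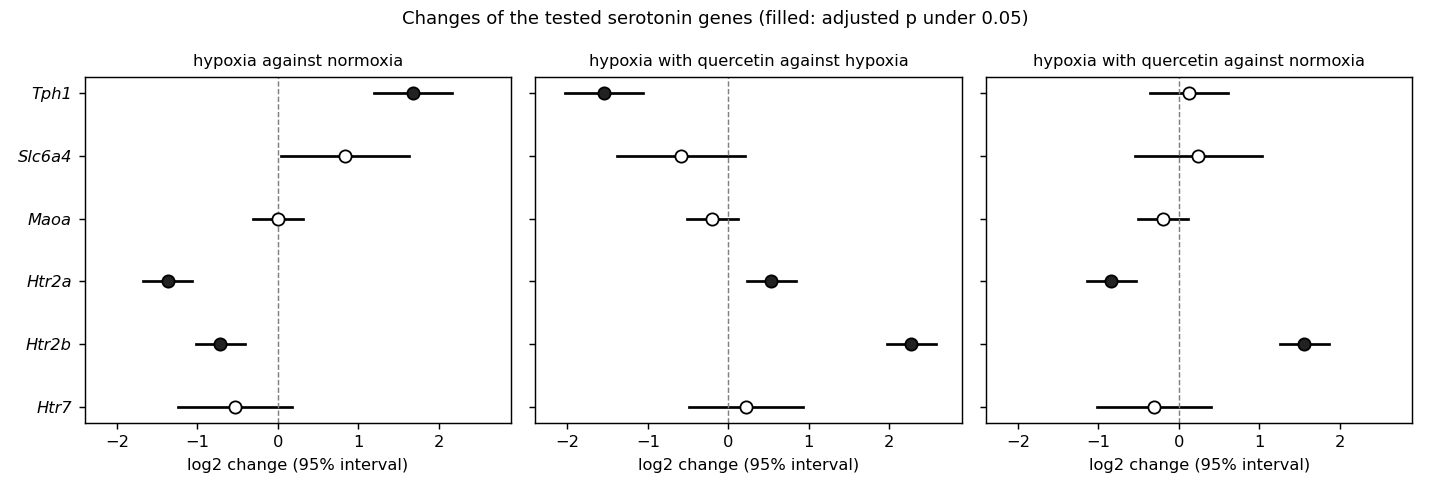
Log2 change of the 6 tested serotonin genes in the 3 comparisons, with bars for the 95% interval and filled points at an adjusted p under 0.05. Tph1 (1.68, then -1.55) and Htr2a (-1.37, then 0.53) lay on opposite sides of 0 in the comparisons that share the hypoxia arrays, and Htr2b was at 2.27 with quercetin against hypoxia.

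Htr7, the Gs-coupled 7 receptor, was near the limit of detection. At chr1:240145435-240145494 it read 4.36%, 4.31% and 5.04% in normoxia, 4.49%, 3.90% and 1.79% in hypoxia and 3.68%, 3.20% and 4.19% with quercetin. The probe was well above background on all normoxia arrays and on 2 of 3 in each other group. No comparison passed, with log2 changes of -0.53, 0.22 and -0.31 (adjusted p = 0.16, 0.57 and 0.45) and 95% intervals of -1.24 to 0.18, -0.49 to 0.93 and -1.02 to 0.40. Changes within these intervals are not excluded. Under spike-in scaling Htr7 passed in hypoxia at -1.04 (adjusted p = 0.021). The probe entered the test only through the normoxia group, where its mean was highest, so that call supports nothing about Htr7.

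Another Htr7 probe, at chr1:240135108-240135167, was well above background on the 3 normoxia arrays and on none of the other 6. It read 4.34%, 5.71% and 5.79% in normoxia, 1.02%, 0.618% and 4.91% in hypoxia and 1.56%, 0.992% and 0.400% with quercetin. It passed the filter only through normoxia, where it was high, so its lower signal in the other groups supports nothing about Htr7. A probe that the files name only by an accession for the serotonin 7 receptor gene was well above background on no array, at 0.256% to 1.73%.

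The Gi-coupled receptors were detected on a few arrays and in no whole group, and were not tested. Htr1b, at chr8:86700094-86700153, read 2.65%, 2.87% and 2.23% in normoxia and was well above background on 2 of those arrays. None of the hypoxia arrays (0.835%, 0.658% and 1.82%) or quercetin arrays (1.75%, 2.09% and 1.80%) had it well above background. Htr1d, at chr5:155189728-155189787, was well above background on 2 quercetin arrays alone, with 1.90%, 3.49% and 2.46% in that group. It read 1.20%, 1.15% and 1.38% in normoxia and 0.598%, 0.872% and 1.94% in hypoxia. The lowest signal called well above background was 1.02% to 2.26% on the normoxia arrays, 2.31% to 7.67% on the hypoxia arrays and 1.78% to 6.98% on the quercetin arrays, so these genes have only an upper bound in a group without such a call, and no fold is given.

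**Figure D3:**
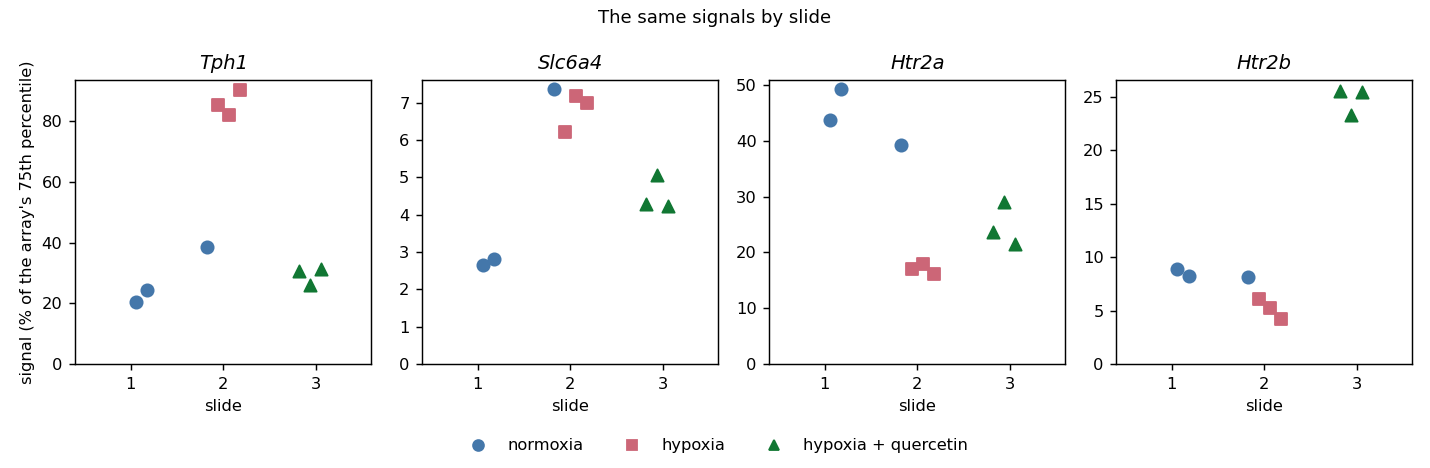
Signal of Tph1, Slc6a4, Htr2a and Htr2b by slide, as a percentage of the array's 75th percentile, with 1 point per array and a symbol per group. On slide 2 normoxia replicate 3 lay below the hypoxia arrays for Tph1 (38.6% against at least 82.1%), above them for Slc6a4 (7.37%), and above them for Htr2a (39.3%) and Htr2b (8.15%).

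The 250 bases upstream of the start of Tph1 and Htr2b are shown because these genes moved in opposite directions with quercetin. They are from RefSeq on GRCr8, on the minus strand at chr1:106314629-106314878 for Tph1 and chr9:94204088-94204337 for Htr2b, and 6 of the 8 genes had an entry. Both strands were searched for ACGTG (a core bound by hypoxia-inducible factors), GCGTG (a core bound by the aryl hydrocarbon receptor) and TGACNNNGC (the antioxidant response element), with matches in capitals. The letters alone do not tell which factor binds. Tph1 had 1 match of the first, read as CACGT, and none of the others, and Htr2b had none of the 3. Of the other 4 genes with an entry, Htr7, which passed in no comparison, had 1 match of the first and 2 of the second, Htr1b had 1 of the second, and Htr1d and Maoa had none.
Tph1: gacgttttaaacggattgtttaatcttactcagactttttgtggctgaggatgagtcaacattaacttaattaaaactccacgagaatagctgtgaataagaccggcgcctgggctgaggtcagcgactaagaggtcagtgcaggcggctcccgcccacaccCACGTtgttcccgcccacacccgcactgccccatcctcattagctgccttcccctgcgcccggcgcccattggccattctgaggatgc
Htr2b: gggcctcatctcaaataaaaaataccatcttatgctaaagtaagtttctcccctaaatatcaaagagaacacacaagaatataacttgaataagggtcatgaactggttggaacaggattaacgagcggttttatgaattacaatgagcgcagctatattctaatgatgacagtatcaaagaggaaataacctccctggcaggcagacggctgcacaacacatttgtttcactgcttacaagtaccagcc
Of 33469 windows of this length before rat genes, 16.6% held the first motif, 25.9% the second and 10.1% the third, so a match in this window is common and is a description of letters. The Tph1 stretch had 54.4% G and C and that of Htr2b 39.6%.

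Among genes whose log2 profile over the 9 arrays lay nearest to each changed gene, Tph1 had Comp, Tlr5 and Oxgr1, at root mean square differences of 0.125, 0.13 and 0.135. Htr2a had Smad5, Bop1 and Rrs1, at 0.0999, 0.103 and 0.109. Htr2b had Gca and Pomc among its nearest, at 0.227 and 0.257. Each profile was centred on its own mean, and 11811 genes were compared. These profiles were farther from Htr2b than those named for Tph1 and Htr2a were from theirs.

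A further 61 genes of the serotonin pathway were all on the array, and 45 were tested. In hypoxia 23 were higher, 7 lower and 15 did not pass (median log2 change 0.571, against 0.103 for all genes, of which 35.3% were higher and 28.9% lower). With normexp correction 15 were higher and 4 lower (median 0.16), and under spike-in scaling the split was 8 higher and 16 lower (median 0.0664, against -0.401 for all genes). With quercetin against hypoxia 9 were higher and 19 lower (median -0.247, against -0.0753, with 26.9% and 31.5% of all genes), or 9 and 15 under spike-in scaling. With quercetin against normoxia 8 were higher and 8 lower (median 0.0439, against 0.0403, with 23% and 21.3% of all genes), or 3 and 19 under spike-in scaling. Within slide 2 the split in hypoxia was 15 higher and 6 lower.

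Of the genes of synthesis and its cofactor tetrahydrobiopterin, 6 of 8 were tested, and 4 were higher and none lower in hypoxia (3 and 2 under spike-in scaling, 2 and 0 within slide 2), where 35.3% of all genes were higher and 28.9% lower. Ddc, the decarboxylase that follows Tph1, was the gene of this list with the largest rise, 2.42 on the log2 scale (adjusted p = 4.1e-06). Unlike Tph1, Ddc stayed high with quercetin, 1.96 above normoxia (adjusted p = 2.3e-05), with a fall of 0.462 from hypoxia (adjusted p = 0.015) that did not pass under spike-in scaling. Qdpr, which recycles the cofactor, behaved likewise, at 1.25 in hypoxia (adjusted p = 3.9e-05) and 1.14 with quercetin against normoxia (adjusted p = 1.4e-04). Gch1, which makes the cofactor, was 1.74 higher in hypoxia (adjusted p = 0.017, but 0.19 within slide 2) and fell by 1.93 with quercetin (adjusted p = 0.012). Spr, a reductase of the same route, rose by 0.85 in hypoxia (adjusted p = 0.0036, but 0.080 within slide 2), and fell by 0.518 with quercetin (adjusted p = 0.036). Pts, another enzyme of the route, was 0.41 higher with quercetin than in hypoxia (adjusted p = 0.0027) and 0.28 higher than in normoxia (adjusted p = 0.022), which turned to -0.122 under spike-in scaling (adjusted p = 0.39). With quercetin against hypoxia 2 genes of this list were higher and 3 lower, where 26.9% and 31.5% of all genes were. Under spike-in scaling it was 2 and 1, so of the falls of Ddc, Gch1 and Spr only 1 passed there. Tph2, the hydroxylase of neurons, was well above background on 1 of the 9 arrays, a quercetin array.

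Of the other receptors 4 of 9 were tested, and Htr1a, Htr1f, Htr2c, Htr4 and Htr5a were well above background on no array. Htr5b was 1.52 higher in hypoxia (adjusted p = 2.8e-04) and fell by 1.70 with quercetin (adjusted p = 1.8e-04). That fall did not pass with normexp correction, where 0 of the 4 tested receptors passed with quercetin against hypoxia. Htr3b, a subunit of the ion channel receptor, had mean signals of 8.60%, 2.52% and 6.62% in the 3 groups and was well above background on 3, 1 and 2 arrays. It passed the filter only through normoxia, where it was high, so its calls as lower in hypoxia (adjusted p = 9.4e-04) and higher with quercetin than in hypoxia (adjusted p = 0.0033) are a description and no size is given. Htr3a, its partner subunit, and Htr6 were 0.96 and 0.93 higher in hypoxia (adjusted p = 0.012 and 0.0083). Within slide 2 those last differences were 0.27 and 0.36 (adjusted p = 0.18 and 0.15), and with normexp correction 0 of the 4 passed in hypoxia in the limma fit, with 1 at an unadjusted p under 0.05.

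Of 6 transport genes 3 were tested, and in hypoxia 0 passed in the limma fit, with 0 at an unadjusted p under 0.05 (under spike-in scaling 1 was lower). Slc18a2, the vesicular monoamine transporter, was 0.66 higher with quercetin than in hypoxia (adjusted p = 0.0033) and 0.45 higher than in normoxia (adjusted p = 0.027). Slc29a4, a membrane monoamine transporter, was 0.67 higher with quercetin than in normoxia (adjusted p = 0.025), and neither difference from normoxia passed under spike-in scaling. Of 7 genes of breakdown and related routes 4 were tested. Aldh2, an aldehyde dehydrogenase that acts after monoamine oxidase, fell by 0.41 with quercetin against hypoxia (adjusted p = 0.026, but 0.081 under spike-in scaling) and was lower than in normoxia (log2 change -0.634, adjusted p = 0.0050). Aanat and Asmt, which turn serotonin into melatonin, were 0.57 and 0.77 higher in hypoxia (adjusted p = 0.0064 and 0.027), and neither passed within slide 2 or under spike-in scaling. Asmt was also 0.97 higher with quercetin than in normoxia (adjusted p = 0.015, but 0.098 under spike-in scaling).

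Of 24 genes of receptor signalling 22 were tested. In hypoxia 11 were higher and 4 lower (3 and 8 under spike-in scaling), where 35.3% and 28.9% of all genes were. With quercetin against hypoxia 3 were higher and 10 lower (3 and 9), where 26.9% and 31.5% of all genes were. Against normoxia it was 2 and 3 (1 and 11), where 23% and 21.3% of all genes were. Under spike-in scaling 2676 of the 22093 genes were higher and 10796 lower in hypoxia. Plcb4, a phospholipase C, and Adcy5, an adenylyl cyclase, were 1.25 and 2.26 higher in hypoxia (adjusted p = 5.5e-05 and 7.8e-05). Plcb4 fell by 1.05 with quercetin against hypoxia (adjusted p = 1.7e-04). Gnas, which encodes Gs, and the kinase Mapk3 were 0.68 and 0.81 higher in hypoxia (adjusted p = 1.3e-04 and 1.4e-04), and the first did not pass under spike-in scaling (0.179, adjusted p = 0.16). Gnas and the kinase Src fell by 0.767 and 1.01 with quercetin against hypoxia (adjusted p = 8.6e-05 and 4.5e-05), and Gna12 was 0.70 higher (adjusted p = 3.0e-04). Against normoxia Gnai3 and Adcy5 were higher with quercetin (0.59 and 1.06, adjusted p = 0.0036 and 0.0072) and Src lower (-0.44, adjusted p = 0.0049). Under spike-in scaling Gnai3 did not pass there (adjusted p = 0.24). Gnaq and Gna11, which encode the Gq proteins that the 2A and 2B receptors use, passed in no comparison of the reported fit. Their log2 changes there were -0.04, -0.03 and -0.06 for Gnaq and 0.02, 0.006 and 0.03 for Gna11. Whether they passed under spike-in scaling, which gave 3 higher and 8 lower genes of this list in hypoxia, is not reported here. Gnaq and Gna11 were chosen for mention after their values were seen.

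Of 7 partners and serotonin-linked genes of the artery wall 6 were tested. Rgs4 and Rgs2, which speed the shut-off of Gq, were lower in hypoxia (log2 changes -3.18 and -1.13, adjusted p = 4.1e-06 and 1.2e-04). Both were higher with quercetin than in hypoxia (1.62 and 0.48, adjusted p = 1.1e-04 and 0.012) and still lower than in normoxia (-1.56 and -0.66, adjusted p = 2.2e-04 and 0.0037), the order in which Htr2a lay. S100a10, a binding partner of serotonin 1B receptors, and Tgm2, a transglutaminase that couples serotonin to proteins, were 1.08 and 0.84 higher in hypoxia (adjusted p = 1.6e-04 and 0.0051) and lower with quercetin than in hypoxia (log2 changes -1.64 and -0.97, adjusted p = 2.3e-05 and 0.0027). The rise of Tgm2 did not pass under spike-in scaling (0.332, adjusted p = 0.17). S100a10 was also lower with quercetin than in normoxia (-0.56, adjusted p = 0.0079). S100a4, a calcium-binding protein linked to serotonin in pulmonary artery disease, was lower with quercetin than in hypoxia (log2 change -1.84, adjusted p = 3.7e-04) and lower than in normoxia (-1.76, adjusted p = 7.7e-04).

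**Figure D4:**
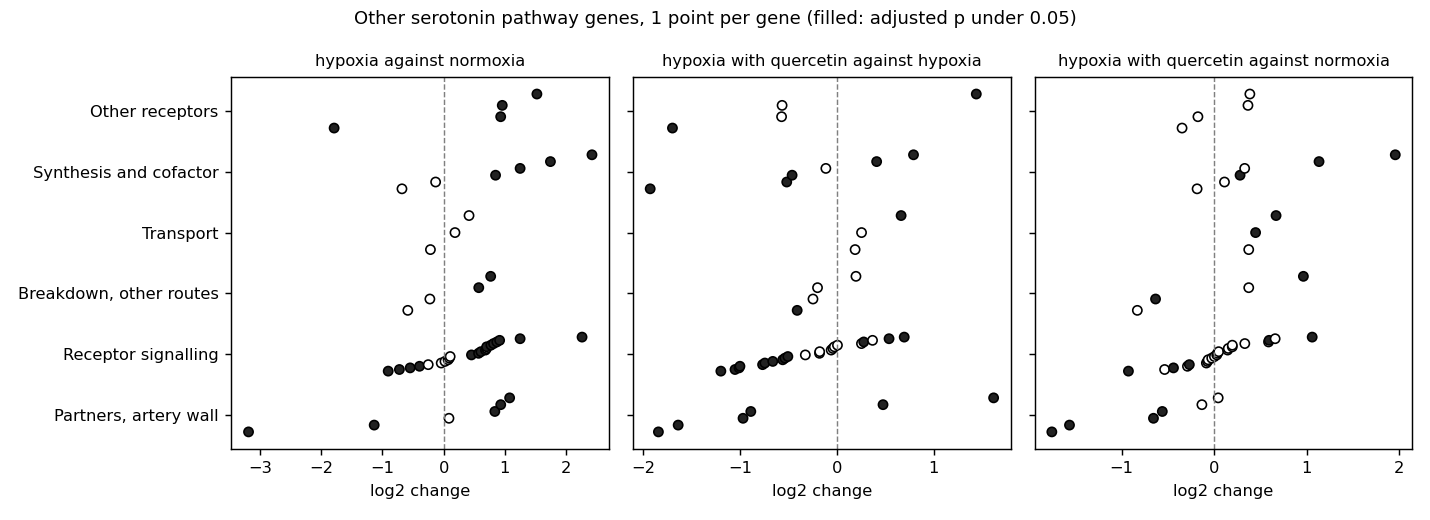
Log2 change of the 45 tested genes of the wider serotonin pathway, 1 point per gene, in 6 lists and 3 comparisons, filled at an adjusted p under 0.05. Horizontal scales differ between panels. In hypoxia 23 points passed above 0 and 7 below, and with quercetin against hypoxia 9 above and 19 below, splits that under spike-in scaling became 8 and 16, and 9 and 15.

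Of 9 smooth muscle markers 8 had a probe, no probe carried the name Acta2, and all 8 were well above background on all arrays. Their summed signal ranged from 16930% to 29560% in normoxia, against 37860% to 40070% in hypoxia alone and 11970% to 14360% after quercetin. The sum was highest where Tph1 was highest, but most of it was Tagln and Actg2, with means of 15190% and 4921% in normoxia. In hypoxia 4 of the 8 were called higher and 0 lower, where 35.3% and 28.9% of all genes were (3 and 2 under spike-in scaling). In bulk samples, fewer cells of a type and less RNA per cell cannot be told apart. Rat mast cells hold serotonin and Tph1. Of 7 mast cell markers Cma1, Ms4a2 and Fcer1a were well above background on no array. The protease genes Tpsab1 (184%, 264% and 222% in the 3 group means) and Mcpt1 (5.03%, 13.0% and 5.48%) were well above background on at least 8 of 9 arrays. The list's summed signal ranged from 189% to 209% in normoxia, against 282% to 299% in hypoxia alone and 237% to 239% after quercetin, and all 3 tested members were higher in hypoxia (1 of them under spike-in scaling, 2 within slide 2). Like Tph1 the sum was highest in hypoxia, but with quercetin it stayed above the normoxia range, where Tph1 did not. Most of the sum was Tpsab1, which was still 0.27 above normoxia with quercetin (log2 change, limma, adjusted p = 0.016). The part of these markers in the Tph1 result was not tested.

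Of 6 endothelial markers Pecam1, Tek and Tie1 were well above background on no array, and the summed signal was 12.2% to 15.4%, 16.3% to 20.6% and 12.6% to 14.9% in the 3 groups. The platelet markers summed to 12.4% to 22.0%, 30.2% to 33.9% and 14.7% to 24.9%, and both that were tested, Gp9 and Gp1ba, were higher in hypoxia (1 of them under spike-in scaling). Of the neuroendocrine and neural markers, Snap25 and Syp were well above background on no array, and the sum was 174% to 221%, 230% to 250% and 215% to 233%. Among epithelial markers Krt7, Krt8 and Krt18 were higher in hypoxia, with a summed signal of 370% to 544%, 3943% to 4683% and 737% to 898%, while Epcam, Krt19 and Cdh1 were well above background on no array. The leukocyte markers summed to 119% to 150%, 188% to 208% and 136% to 165%, and the fibroblast markers to 84190% to 89760%, 120400% to 131100% and 81220% to 96020%. Most of that last sum was Col1a1 and Col3a1, with means of 32390% and 38910% in normoxia. Of the 8 fibroblast markers 3 were higher in hypoxia and 3 lower, with log2 changes of -3.63 for Lum and -1.45 for Fap (adjusted p = 1.8e-05 and 1.8e-05). The other lower gene, Dcn, passed the filter only through normoxia, where it was high. Its call is thus a description and no size is given. Of the endothelial markers 0 of 2 tested passed in hypoxia in the limma fit, with 1 at an unadjusted p under 0.05, and of the neuroendocrine and neural markers 2 of 4 passed. On this scale the hypoxia range of each of these 6 sums lay above the normoxia range, although the sums follow a few bright probes and include dim ones. The 75th percentile itself was lower in hypoxia (409 to 432 against 585 to 598 units), which raises the percentage for a given intensity. Under spike-in scaling 0 endothelial, 0 neuroendocrine and neural and 0 fibroblast markers were called higher in hypoxia (4 fibroblast markers lower). Of the leukocyte markers 1 was higher and 1 lower, while 3 epithelial markers and Tph1 (1.17) still rose. The part of these lists in the Tph1 values was not tested.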

How the data were processed

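RNA of 9 samples was read on 1-colour arrays. Per the file headers, spot intensities came from Agilent Feature Extraction 10.7.3.1 with local background subtracted. The labels describe a microRNA labelling kit while the headers name a gene expression protocol, so the labelling chemistry is uncertain. The deposited table of log2 values, made in a way no label or header states, served as an alternative.

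From the deposited intensities, log2 processed signals were taken after leaving out 1639 control spots and 71 to 148 outlier spots per array, averaged over spots of 1 probe, and lowered by the array's 75th percentile. A probe had to be called well above background throughout 1 group or more, which kept 26655 (65%), and a gene was its brightest kept probe. Probes were named through RefSeq tables by accession (18507), symbol (2901) or synonym (388), and otherwise kept the file's name (19216). Group means were fitted with limma 3.58.1 in R 4.3.3 (lmFit, eBayes, two-sided), checked on simulated data. All arrays entered every comparison, with 6 residual and 2.3 prior degrees of freedom. The number of arrays, 3 per group, limits the precision.

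The members and lists were chosen with earlier results of these data known. Named were all 8 members, in each pathway list up to 4 genes per comparison with the smallest adjusted p among those passing, and the 3 nearest profiles of each changed member. Some genes that this rule names are not reported here. Alternatives were normexp (offset 50), quantile, median and spike-in scaling (6 control probes), no filter or a filter on all 9 arrays, single probes, the deposited table, blocks for slide, scan day and replicate, only the arrays compared, and leaving out each array.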

Additional observations from a re-analysis of the deposited data

How the results depend on the processing

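Results are log2 changes or counts of genes changed, named as hypoxia (against normoxia), quercetin (against hypoxia) and both (hypoxia with quercetin against normoxia). The rise of Tph1 in hypoxia (1.154 to 1.941 over 22 alternatives), its fall with quercetin (-1.601 to -1.013 over 21), the fall of Htr2a in hypoxia (-1.874 to -0.866 over 22) and the rise of Htr2b with quercetin (1.138 to 2.397 over 20) kept direction and call in each of them. These alternatives are not all separate. Blocks for slide and for scan day gave the same values in hypoxia, and the deposited table gave the same counts of pathway genes as quantile normalization. Normexp was run with an offset of 50 intensity units, which shrinks the log2 changes of probes dimmer than that. Among these were Slc6a4 on all arrays (15.9 to 43.1) and Htr2b in hypoxia (17.31 to 25.15). With normexp the genes changed numbered 6718 in hypoxia, 6159 with quercetin and 3169 in both, where the reported fit gave 14184, 12902 and 9785, other pathway genes 19, 17 and 7, and serotonin genes in both 0. With it Slc6a4 with quercetin was 0.243 and Htr7 in both 0.230, and Htr2b in hypoxia, Htr2a with quercetin, and Htr2a and Htr2b in both no longer passed (adjusted p = 0.66, 0.081, 0.25 and 0.070). In that limma fit 1 of the 6 serotonin genes was at an unadjusted p under 0.05 in both.

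Under spike-in scaling 5 serotonin genes passed in hypoxia, and all genes changed split into 2676 higher and 10796 lower in hypoxia, where the 75th percentile gave 7798 and 6386. The split was 6510 and 5671 with quercetin (5934 and 6968) and 1687 and 9804 in both (5081 and 4704). Maoa in hypoxia was -0.501, Slc6a4 in both -0.161 and Tph1 in both -0.274. Under median scaling Maoa in hypoxia was -0.046. With only probes well above background on all 9 arrays, 1 serotonin gene passed in both. With slide or scan day as a block Slc6a4 in hypoxia was -0.12, and with scan day as a block in both Slc6a4 was -0.71, Tph1 -0.396, all genes changed 5810 and pathway genes 9. No value with slide as a block could be had for the quercetin comparisons, whose groups share no slide. Leaving out each array in turn gave 2 to 4 serotonin genes in both, with 4 without normoxia replicate 3 (Slc6a4 0.718 and Tph1 0.391 then passed), Maoa in hypoxia at -0.061 to 0.095, Slc6a4 in both at -0.017 to 0.718, Tph1 in both at -0.065 to 0.391 and Htr7 with quercetin at -0.19 to 0.476. Without hypoxia replicate 3 and quercetin replicate 1, a choice made after seeing the data, Htr7 with quercetin was -0.192. The cause of these shifts was not tested.

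Samples with the same replicate number did not deviate together (correlations -0.266 to 0.019), so no pairing was used in the reported fit. Samples of unlike number correlated at up to 0.25, so this check cannot exclude a pairing. With the replicate number as a block 13193, 11967 and 8506 genes passed in the 3 comparisons, and no call of a serotonin gene changed. Signal over background limits Htr1b, Htr1d, Htr7 and Slc6a4 most.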
